A study of Mus musculus with 27 samples.

Results

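The Bcl2 family and p53 axis was followed in Hedgehog-driven tumours of the mouse cerebellum and in cerebellum without tumour. Of 10 genes named for it, 8 had at least 1 probe set annotated to that gene alone: the pro-survival genes Bcl2, Bcl2l1 (Bcl-xL) and Mcl1, the pore-forming effector Bak1, the BH3-only gene Bcl2l11 (Bim), the p53 inhibitor Mdm2, and the p53 targets Ccng1 and Eda2r. Bax and Trp53 were not analysed here. The 8 genes were covered by 29 of the 45101 probe sets on the array, and 24 of these passed the filter on low signals, with at least 1 for each gene. The gene-level tests ran over 13527 genes, each read by its probe set of highest mean. In RefSeq's GRCm38.p6 the genes lie at chr1:106538176-106714290 (Bcl2), chr2:152758732-152833803 (Bcl2l1), chr3:95656944-95663179 (Mcl1), chr17:27019812-27028627 (Bak1), chr2:128126038-128162547 (Bcl2l11), chr10:117688875-117710758 (Mdm2), chr11:40748552-40755309 (Ccng1) and chrX:97333837-97377234 (Eda2r).

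The Bcl2 family sets whether the outer mitochondrial membrane stays sealed. Pro-survival members hold the effectors Bax and Bak1 in check, BH3-only proteins such as Bim and Puma bind the pro-survival members and release the effectors, and the cytochrome c that then leaks out assembles Apaf1 and caspase 9 into the apoptosome. p53 is kept low by Mdm2, which marks it for degradation, and once stabilised it raises genes of cell cycle arrest, DNA repair and death, and Mdm2 itself; granule neuron precursors of the cerebellum are known for p53-dependent death after DNA damage.

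RNA came from 27 samples in 6 groups, 1 array each. SmoM2, an activated form of the Hedgehog signal transducer Smoothened, was switched on by 4 cre drivers, and the tumours were Math1-cre:SmoM2 (3 arrays), Tlx3-cre:SmoM2 (3), Olig2-tva-cre:SmoM2 (7) and hGFAP-cre:SmoM2 (6). The fifth tumour group came from Ptc1+/- mice (2 arrays), which have lost 1 working copy of the Hedgehog receptor gene Ptch1. The 6 non-tumour arrays held cerebellum from the lines Olig2-tva-cre:SmoM2 (arrays 1 and 2), hGFAP-cre:SmoM2 (array 3), Mxi1-cre:SmoM2 (arrays 4 and 5) and Ptc1+/- (array 6). The labels name these lines but do not state which alleles each control carried, and none is labelled as wild type. Math1 and Tlx3 drive cre in granule neuron lineages, and Olig2 and the human GFAP promoter in wider progenitor pools. The labels give no age or sex. They speak of biological replicates but tie no array to an animal, and p-values then reflect only how far these samples vary.

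Signals are given as log2 of the MAS5 signal after rescaling of each array, and values below 3.37 were raised to that floor. The deposited trimmed mean signals ran from 42.6 to 206. The 7 dimmest arrays were 5 Olig2 tumours (arrays 3 to 7), hGFAP tumour array 4 and Ptc1+/- tumour array 2. The 5 arrays with the highest 3' to 5' ratio of control transcripts, a measure of RNA integrity, were Olig2 arrays 3 and 4, hGFAP arrays 4 and 6, and non-tumour array 1. Cell type markers differed between the tissues: 9 of 9 tested markers of mature granule neurons fell in tumours, from Rbfox3 at -0.98 to Gabra6 at -5.46, and 7 of 7 Purkinje cell markers and 7 of 7 oligodendrocyte markers fell. Markers of granule neuron precursors rose for 8 of 9, dividing-cell markers for 9 of 9 and microglia and macrophage markers for 10 of 10. The summed signal of the dividing-cell markers was 812 to 1377 on the non-tumour arrays and 5733 to 19093 on the tumour arrays, that of the microglial markers 1228 to 1780 and 3738 to 11602, and that of the mature granule markers 26930 to 36826 and 2316 to 8421. Of the defining markers, Slc1a6 (Purkinje cells) was at the floor on every Math1 and Ptc1+/- tumour array and Mog (oligodendrocytes) on every Math1 tumour array. In whole tissue, fewer cells of a type and less RNA per cell cannot be told apart, and the part of cell composition in the results that follow was not tested.

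Against non-tumour cerebellum, the mean of the 5 tumour groups was higher for Eda2r, a receptor of the tumour necrosis factor family and a p53 target, by 3.39 on the log2 scale, and for Bcl2l11 by 0.57. It was lower for Bcl2l1, by 0.63, and for Ccng1, by 0.53. Bcl2, Mcl1, Bak1 and Mdm2 did not pass the test at the gene level. Thus 2 members rose, 2 fell and 4 were not called, where 52.4% of all genes tested were called in this comparison, 26.8% higher and 25.6% lower. The median difference of the 8 members was 0.22, and that of all genes 0.02. The share of members called was close to that of all genes. Tests were those of limma, with p-values adjusted by the Benjamini-Hochberg method over the 13527 genes and a call at an adjusted p under 0.05. With the signals as deposited, without rescaling, the median of all genes shifted to -0.34 over all tumours, to -1.01 for Ptc1+/-, -0.68 for Olig2 and -0.34 for hGFAP tumours, and to 0.10 and 0.29 for Math1 and Tlx3 tumours.

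**Figure D1:**
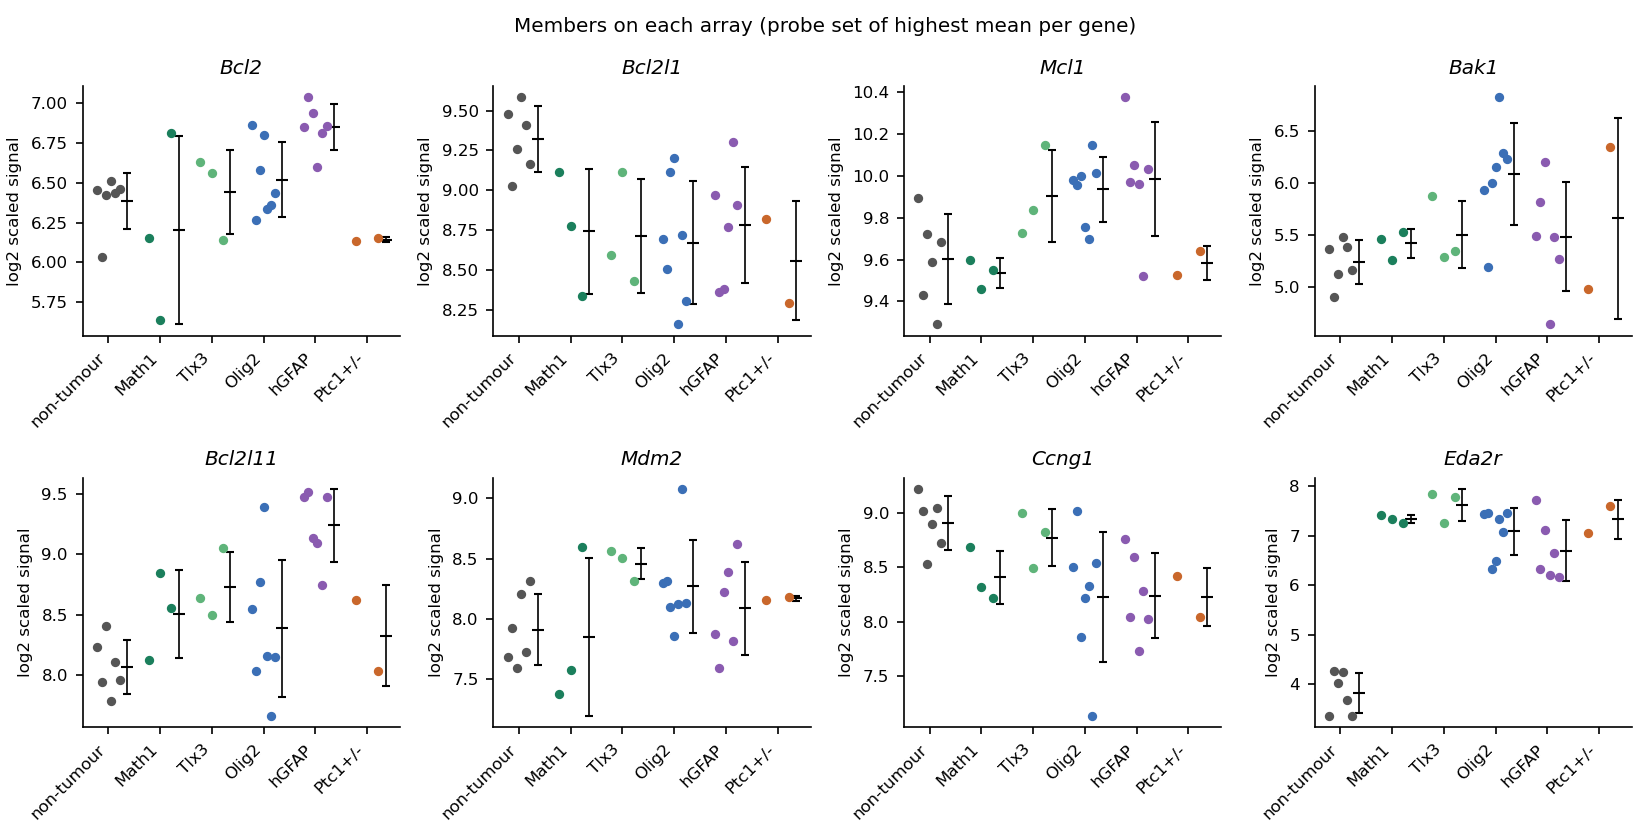
Log2 scaled signal of the 8 members (vertical axes, each with its own range) on every array, in the 6 groups on the horizontal axes; dots are arrays and the bars are group means with SD. The tumour arrays of Eda2r lie between 6.17 and 7.84, all above the non-tumour arrays, whose highest is 4.26; the other members overlap.

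Bcl2l1 encodes Bcl-xL, the pro-survival protein that keeps postmitotic neurons alive. Its signal on the non-tumour arrays had a lowest value of 9.03, a median of 9.33 and a highest of 9.58. The Math1 tumours held 9.11, 8.78 and 8.34, the Tlx3 tumours 8.60, 9.11 and 8.43, and the Ptc1+/- tumours 8.82 and 8.29. The Olig2 tumours ran from 8.16 through a median of 8.70 to 9.20, and the hGFAP tumours from 8.36 through 8.84 to 9.30. Thus 16 of the 21 tumour arrays lay below every non-tumour array, and each tumour group other than Ptc1+/- had at least 1 array inside the non-tumour range. Bcl2l1 was 0.63 lower in tumours (SE 0.17, adjusted p = 0.0021, a 1.54-fold decrease). The group differences were -0.76 for Ptc1+/- (adjusted p = 0.0363), -0.65 for Olig2 (0.0064), -0.61 for Tlx3 (0.0497) and -0.54 for hGFAP tumours (0.0322), and -0.58 for Math1 tumours, which missed the call (0.0659). In order of mean, non-tumour tissue stood at 9.32 ± 0.21 (SD, n = 6), then hGFAP at 8.78 ± 0.36 (n = 6), Math1 at 8.74 ± 0.39 (n = 3), Tlx3 at 8.71 ± 0.36 (n = 3), Olig2 at 8.67 ± 0.39 (n = 7) and Ptc1+/- at 8.56 ± 0.37 (n = 2), and neighbouring tumour groups differed by less than their SDs. The call over all tumours was kept under every alternative run, with adjusted p up to 0.029. Those of single groups were less firm: the Tlx3 call was lost in 14 of the 27 fits that left out 1 array (without Math1 array 2, Tlx3 array 1 or 3, Olig2 array 1, 2 or 6, hGFAP array 1, 4 or 6, or non-tumour array 1, 3, 4, 5 or 6, adjusted p up to 0.217), the hGFAP call in 5 (without hGFAP array 2 or 3, or non-tumour array 1, 4 or 5, adjusted p up to 0.0839) and the Ptc1+/- call in 4 (without Ptc1+/- array 2, where the difference was -0.50, or non-tumour array 1, 4 or 5). The Math1 difference was called without Math1 array 1 (-0.76, adjusted p = 0.0407). Over all 43 alternatives, these fits included, the Tlx3 call was lost in 22 and the hGFAP call in 8, and the Math1 difference was called in 4. The Tlx3 and hGFAP calls were both lost without the Mxi1-cre controls. With the signals as deposited the Tlx3 value was -0.23 (adjusted p = 0.759). Ptc1+/- tumours had 1 called member in place of 2 with array weights or without the Mxi1-cre controls. The same held with the 3' to 5' ratio or brightness as a covariate. Without the 7 dimmest arrays, which left 1 Ptc1+/- array, the Ptc1+/- value was -0.50.

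The other tested probe sets of Bcl2l1 varied more. Probe set 1420887_a_at differed by -0.82 (SE 0.40, adjusted p = 0.0945 over the probe sets) and 1426191_a_at by -0.72 (SE 0.50, adjusted p = 0.254). In hGFAP tumours 1420887_a_at was lower by 2.11 and passed the test. Arrays of highest 3' to 5' ratio read low on it: hGFAP arrays 4 and 6 at 4.81 and 4.89, Olig2 arrays 3 and 4 at 5.37 and 5.75. Non-tumour array 1, also of high ratio, read 5.70, and the remaining non-tumour arrays lay between 7.27 and 8.05. hGFAP array 3, with the lowest ratio of its group (0.32 in log2), read 7.01, and hGFAP array 2 (0.66) read 3.85. The part of RNA integrity in this fall was not tested. On 1426191_a_at all 6 hGFAP tumours and non-tumour array 1 were at the floor, so that its called value of -1.73 there is no exact size. In Ptc1+/- tumours neither was called, and the 2 arrays disagreed: array 2 held 8.08 and 7.01 and array 1 held 7.0 and 4.36 on the 2 probe sets. With the gene's probe sets averaged, Bcl2l1 stood at 0.030 in place of -0.76 in Ptc1+/- tumours and at -0.23 in place of -0.65 in Olig2 tumours, where the call was lost (adjusted p = 0.559).

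Bcl2, the founding pro-survival gene, stood above every non-tumour array on 12 of the 21 tumour arrays, below all of them on 1 and within their range on the others. Its non-tumour signals were 6.04 at the lowest, 6.45 at the median and 6.51 at the highest. The Math1 tumours spread widely, at 6.15, 5.64 and 6.81, the Tlx3 tumours held 6.63, 6.56 and 6.14, and the Ptc1+/- tumours 6.13 and 6.15. The Olig2 tumours had a lowest, median and highest signal of 6.27, 6.43 and 6.86. All 6 hGFAP tumours, from 6.60 through 6.86 to 7.04, lay above every non-tumour array. The share of all genes placed this way in hGFAP tumours was not computed, and 41.7% of genes were called there. The difference over all tumours was 0.04 (SE 0.15, 95% interval -0.26 to 0.35, adjusted p = 0.83). In hGFAP tumours alone Bcl2 was called higher, by 0.46 (SE 0.18, adjusted p = 0.0415), with a mean of 6.85 ± 0.15 (n = 6) against 6.52 ± 0.23 (n = 7) in Olig2, 6.44 ± 0.27 (n = 3) in Tlx3, 6.39 ± 0.17 (n = 6) in non-tumour tissue, 6.20 ± 0.59 (n = 3) in Math1 and 6.14 ± 0.01 (n = 2) in Ptc1+/- tissue. A test of any difference among the 4 SmoM2 groups did not pass (adjusted p = 0.22). The hGFAP call was lost in 10 of the 27 fits without 1 array: without hGFAP array 1, 2, 3, 5 or 6, and without non-tumour array 1, 2, 3, 5 or 6 (adjusted p from 0.0504 to 0.104). It was lost under 8 of the 16 other alternatives too, with 0.022 (adjusted p = 0.972) for the signals as deposited and 0.35 (adjusted p = 0.159) with probe sets averaged. None of the 4 tested probe sets of Bcl2 passed over all tumours in the fit over probe sets, where 46.8% of 30107 did (24.4% higher, 22.4% lower).

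Mcl1, a short-lived pro-survival protein that neural precursors depend on, was read by 6 probe sets that fell into a pair of sets of 3. The 3 whose names end in _at and that list the same source sequence rose in tumours: 1416880_at by 0.87 (SE 0.13, adjusted p = 2.2e-06), 1416881_at by 1.10 (SE 0.31, 0.0046) and 1448503_at by 1.42 (SE 0.16, 2.2e-08). The 3 that end in _x_at, a suffix this array type gives to probe sets whose probes can match other sequences too, stood at 0.19, 0.17 and 0.34 and were not called. For 1448503_at the non-tumour arrays ran from 7.97 through a median of 8.15 to 8.81. The tumours held 9.68, 9.46 and 9.35 in Math1, 9.06, 9.53 and 9.83 in Tlx3, and 9.72 and 9.26 in Ptc1+/-, with 9.53, 9.81 and 10.76 as lowest, median and highest in Olig2 and 9.57, 9.78 and 10.15 in hGFAP. Every tumour array lay above every non-tumour array on 1448503_at and on 1416880_at, as on 6.58% of the probe sets tested (8.11% lay wholly below). The rise of 1448503_at was called under every alternative, the smallest value being 1.07 with the signals as deposited. Those of 1416880_at and 1416881_at lost their call only with the signals as deposited, at 0.52 (adjusted p = 0.132) and 0.75 (0.0539).

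The gene-level values of Mcl1 come from 1437527_x_at, the brightest of the 6. There the non-tumour arrays had a lowest, median and highest signal of 9.29, 9.64 and 9.90, and 11 of the 21 tumour arrays lay above them all. The Math1 tumours held 9.60, 9.46 and 9.55, the Tlx3 tumours 9.73, 9.84 and 10.15, and the Ptc1+/- tumours 9.53 and 9.64. The Olig2 tumours ran from 9.70 to 10.15 and the hGFAP tumours from 9.52 to 10.38. Over all tumours the difference was 0.19 (SE 0.12, adjusted p = 0.20), and it was 0.68 (adjusted p = 1.4e-05) when the 6 probe sets were averaged. Calls on this probe set were made in Olig2 (0.33, adjusted p = 0.0498) and hGFAP tumours (0.38, adjusted p = 0.0357), and both changed sign, to -0.34 and -0.06, with the signals as deposited. The Olig2 call was lost in 21 of the 27 fits without 1 array (adjusted p up to 0.133), the others being those without Olig2 array 4 or 5, hGFAP array 1 or 5, Ptc1+/- array 2 or non-tumour array 1, and the hGFAP call in 6 (adjusted p up to 0.0998), without hGFAP array 1, 3 or 6 or non-tumour array 2, 4 or 5.

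**Figure D2:**
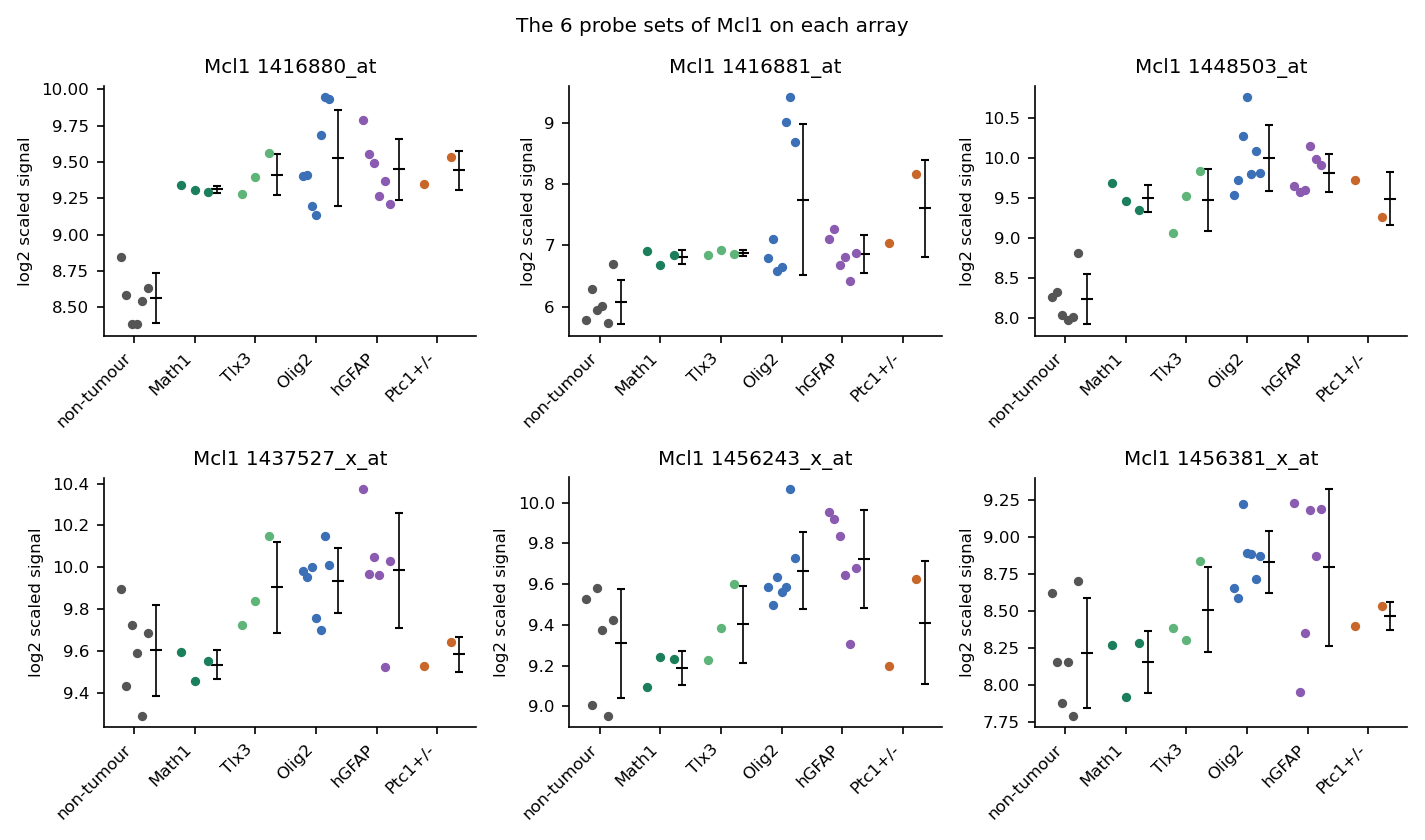
Log2 scaled signal of the 6 probe sets of Mcl1 (vertical axes, each with its own range) on every array by group; dots are arrays and the bars are group means with SD. In the top row the tumour arrays of 1416880_at and 1448503_at all lie above the non-tumour arrays, while in the bottom row the groups overlap on each of the 3 _x_at probe sets.

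On 1416881_at, 4 tumour arrays stood apart: Olig2 arrays 5, 6 and 7 at 9.01, 9.42 and 8.69, and Ptc1+/- array 2 at 8.17, while the other tumours lay between 6.41 and 7.27. These 4 are among the 7 dimmest arrays. The same 4 arrays were the lowest tumours on the Bcl2l11 probe set 1435448_at, at 7.52, 7.22, 7.66 and 7.41, and the highest tumours on Bak1, at 6.82, 6.29, 6.23 and 6.35. They also held the 4 highest tumour signals on Bcl2l1 probe set 1426191_a_at, at 7.13, 7.49, 7.03 and 7.01 where no other tumour exceeded 4.53, and on Mdm2 probe set 1427718_a_at, at 7.73, 8.34, 7.57 and 7.83. The other 3 of the dimmest arrays, Olig2 arrays 3 and 4 and hGFAP array 4, did not share the pattern, with 6.59, 6.64 and 6.82 on 1416881_at. Their log2 3' to 5' ratios were 1.72, 1.78 and 1.88, among the highest. Olig2 arrays 5, 6 and 7 had the lowest ratios of all arrays, at -0.15, -0.13 and -0.12, and Ptc1+/- array 2 had 0.07. Math1 array 2, with a ratio of -0.07, read 6.69 on 1416881_at. The cause of the pattern was not tested.

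Bak1, whose protein opens pores in the mitochondrial outer membrane, gave low signals throughout. The non-tumour arrays ran from 4.91 through 5.26 to 5.49. The Math1 tumours held 5.47, 5.26 and 5.53, the Tlx3 tumours 5.88, 5.29 and 5.35, and the Ptc1+/- tumours 4.98 and 6.35. The Olig2 tumours had a lowest, median and highest signal of 5.19, 6.16 and 6.82, and 6 of the 7 lay above every non-tumour array. The hGFAP tumours spread from 4.65 through 5.49 to 6.21. Over all tumours Bak1 differed by 0.39 (SE 0.22, 95% interval -0.06 to 0.85, adjusted p = 0.146), and it was called only when Ptc1+/- array 1 was left out (0.53, adjusted p = 0.0428). In Olig2 tumours it was called higher, by 0.85 (SE 0.26, adjusted p = 0.0079, 1.80-fold). That call ended with the signals as deposited (0.18, adjusted p = 0.674), without the 7 dimmest arrays, 5 of them Olig2 tumours (0.33, adjusted p = 0.419), and with brightness as a covariate (0.61, adjusted p = 0.0822). The order of means was Olig2 at 6.09 ± 0.49 (n = 7), Ptc1+/- at 5.66 ± 0.97 (n = 2), Tlx3 at 5.51 ± 0.32 (n = 3), hGFAP at 5.49 ± 0.53 (n = 6), Math1 at 5.42 ± 0.14 (n = 3) and non-tumour at 5.24 ± 0.21 (n = 6), with each pair of neighbours closer than the larger of their SDs.

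Bcl2l11 encodes Bim, a BH3-only protein that binds all pro-survival members and is induced in neurons deprived of trophic support. It rose over all tumours on each of its 4 tested probe sets: 1456005_a_at, the one used for the gene, by 0.57 (SE 0.18, adjusted p = 0.0103 over genes), and the others by 1.03, 1.08 and 1.29 (adjusted p = 6.8e-05, 6.1e-05 and 2.5e-05 over probe sets). On 1456005_a_at the non-tumour arrays had a lowest, median and highest signal of 7.79, 8.03 and 8.41. Tumours of Math1 held 8.12, 8.85 and 8.56, those of Tlx3 8.64, 8.50 and 9.06, and those of Ptc1+/- mice 8.62 and 8.03. The Olig2 tumours ran from 7.66 through a median of 8.16 to 9.39, on both sides of the non-tumour range. All 6 hGFAP tumours, at 8.75 to 9.51 with a median of 9.30, lay above it, and 15 of the 21 tumour arrays did. The share of all genes with every hGFAP tumour above the controls was not computed. The hGFAP difference of 1.17 (SE 0.22, adjusted p = 9e-05, 2.25-fold) was the only group call on this probe set and was lost only with the signals as deposited (0.73, adjusted p = 0.143). The Tlx3 difference of 0.66 (adjusted p = 0.0548) was called without Olig2 array 4 or 6 or non-tumour array 3. The means fell from 9.24 ± 0.30 (n = 6) in hGFAP to 8.73 ± 0.29 (n = 3) in Tlx3, a gap larger than either SD, and then stood at 8.51 ± 0.36 (n = 3) in Math1, 8.39 ± 0.57 (n = 7) in Olig2, 8.33 ± 0.42 (n = 2) in Ptc1+/- and 8.07 ± 0.22 (n = 6) in non-tumour tissue. Among the SmoM2 groups the means spanned 0.85, and the test of any difference did not pass (adjusted p = 0.0955), although it did without Olig2 array 4 (adjusted p = 0.0257) and without the 5 arrays of highest 3' to 5' ratio (adjusted p = 0.0232).

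The probe sets of Bcl2l11 ordered the tumour groups differently. On 1435448_at the difference was 1.47 in hGFAP, 1.37 in Math1, 1.11 in Tlx3 and 0.71 in Olig2 tumours, all called, and 0.47 in Ptc1+/- tumours, not called. On 1456006_at it was 1.31, 1.12, 1.14, 1.38 and 1.50 in the same order of groups, and all 5 were called. The non-tumour signals of 1456006_at, up to 37.9 before log2, were under the filter's threshold of 45.6, so it passed through tumour arrays alone. Over all tumours the call of 1456005_a_at was lost with the signals as deposited (0.22, adjusted p = 0.596) and without the Mxi1-cre controls (0.51, adjusted p = 0.0651). The calls of 1435449_at and 1456006_at were kept under every alternative, with values from 0.73 to 1.23 and from 0.83 to 1.43.

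**Figure D3:**
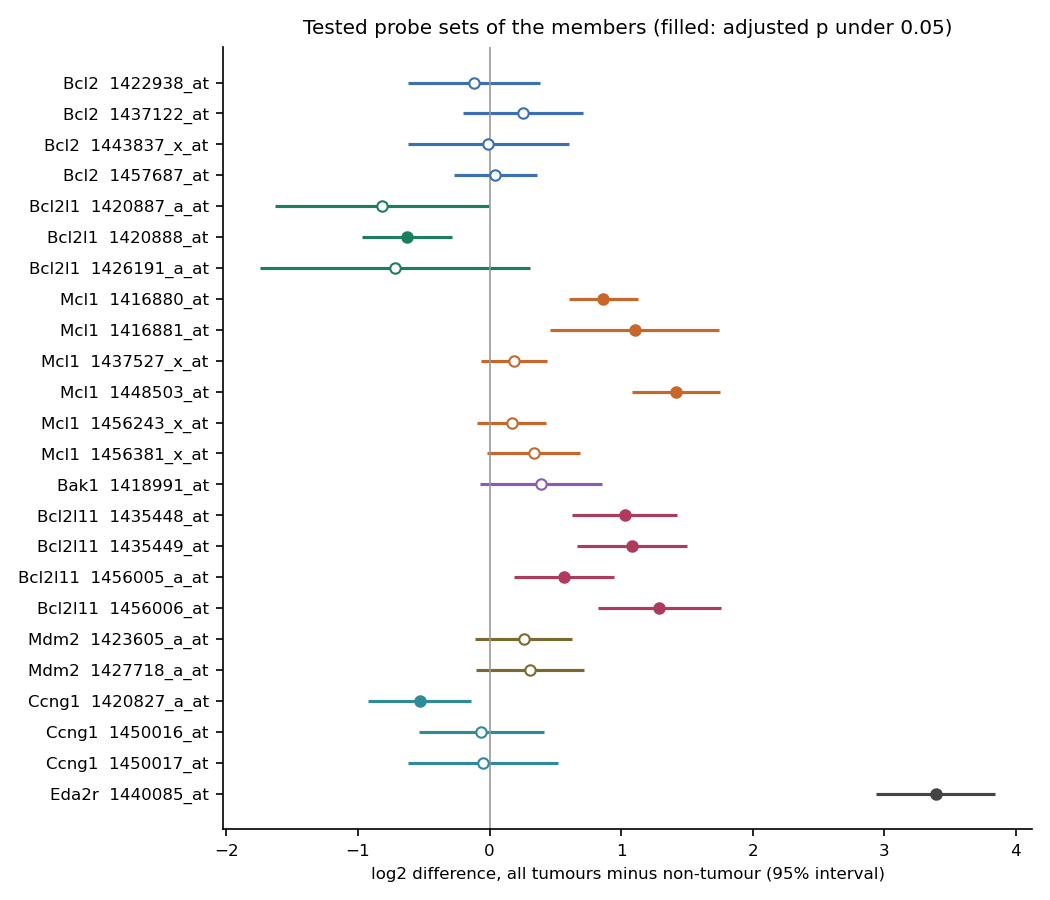
Difference of all tumours minus non-tumour on the log2 scale (horizontal axis) for the 24 tested probe sets of the 8 members; points are estimates, lines are 95% intervals and filled points passed at an adjusted p under 0.05 over 30107 probe sets. Filled are 10 of the 24: 3 of Mcl1, 4 of Bcl2l11 and 1 each of Bcl2l1, Ccng1 and Eda2r.

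On the p53 side, the 3 members differed in direction: Eda2r rose, Ccng1 fell and Mdm2 was not called. Their promoters are shown because all 3 genes are known p53 targets, so that the sequence at their start sites can be set beside these values. Each window is 300 bases around the RefSeq start in build GRCm38.p6, and all 3 lie on the minus strand: Mdm2 at chr10:117710709-117711008, Ccng1 at chr11:40755237-40755536 and Eda2r at chrX:97377160-97377459. Capitals mark a match to the p53 half-site consensus, searched on both strands.
Mdm2: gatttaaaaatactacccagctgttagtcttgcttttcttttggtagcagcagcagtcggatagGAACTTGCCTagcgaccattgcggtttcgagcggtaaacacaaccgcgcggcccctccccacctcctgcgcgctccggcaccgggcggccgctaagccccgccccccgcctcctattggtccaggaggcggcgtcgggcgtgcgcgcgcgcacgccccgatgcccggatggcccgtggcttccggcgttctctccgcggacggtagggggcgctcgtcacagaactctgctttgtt
Ccng1: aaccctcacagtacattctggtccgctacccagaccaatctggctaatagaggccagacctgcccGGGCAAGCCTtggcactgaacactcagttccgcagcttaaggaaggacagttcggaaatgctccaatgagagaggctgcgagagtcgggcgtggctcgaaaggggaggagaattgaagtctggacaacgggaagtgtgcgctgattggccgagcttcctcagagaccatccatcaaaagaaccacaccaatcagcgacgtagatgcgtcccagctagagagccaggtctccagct
Eda2r: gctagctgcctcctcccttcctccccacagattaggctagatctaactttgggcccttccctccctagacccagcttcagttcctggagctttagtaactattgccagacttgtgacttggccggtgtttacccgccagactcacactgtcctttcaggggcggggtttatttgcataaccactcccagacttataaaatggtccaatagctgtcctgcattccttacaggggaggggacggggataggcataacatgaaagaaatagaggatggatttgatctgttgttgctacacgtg

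The match in the Mdm2 window is GAACTTGCCT, from base -186 to base -177 relative to the start, and that in the Ccng1 window is GGGCAAGCCT, from -185 to -176. The start is the one each window was set on. For Ccng1 and Eda2r it lies inside the gene span printed above, not at its end. No match lies in the Eda2r window. RefSeq gave 11 windows for the 8 members, of which 2 held a half-site, against 8.36% of all 32851 windows of the same length. The GLI motif GACCACCCA, also searched on both strands, was in none of the 11, and in 0.253% of all windows. A match describes letters in a window and says nothing of binding in these tissues.

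Mdm2, the ligase that limits p53, overlapped between tumour and non-tumour tissue. Non-tumour arrays ran from 7.59 through 7.82 to 8.32. Its signals were 7.37, 7.58 and 8.60 in the Math1 tumours, 8.56, 8.50 and 8.31 in the Tlx3 tumours, and 8.16 and 8.18 in the Ptc1+/- tumours. The Olig2 tumours ran from 7.85 through 8.13 to 9.08, the last being Olig2 array 6, and the hGFAP tumours from 7.59 through 8.05 to 8.62. The difference over all tumours was 0.26 (SE 0.18, 95% interval -0.11 to 0.62, adjusted p = 0.23), and on the other tested probe set 0.31 (adjusted p = 0.215). No group was called. Tlx3 tumours had the largest value, 0.55 (adjusted p = 0.0977), which passed with only the groups compared (adjusted p = 0.0208), with array weights (0.57, adjusted p = 0.0127) and with the replicate block (0.69, adjusted p = 0.0302). In order, the means were 8.46 ± 0.13 (n = 3) in Tlx3, 8.27 ± 0.39 (n = 7) in Olig2, 8.17 ± 0.02 (n = 2) in Ptc1+/-, 8.09 ± 0.39 (n = 6) in hGFAP, 7.91 ± 0.30 (n = 6) in non-tumour and 7.85 ± 0.66 (n = 3) in Math1 tissue, each within the larger SD of its neighbour.

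Ccng1 encodes cyclin G1, a p53 target that feeds back on p53 by directing the phosphatase PP2A to Mdm2. On 1420827_a_at the non-tumour arrays had a lowest, median and highest signal of 8.53, 8.96 and 9.22. Math1 tumours held 8.68, 8.32 and 8.22, Tlx3 tumours 9.0, 8.49 and 8.82, and Ptc1+/- tumours 8.42 and 8.04. The Olig2 tumours ran from 7.14 through 8.33 to 9.02, with array 6 the lowest, and the hGFAP tumours from 7.73 through 8.16 to 8.76. Thus 14 of the 21 tumour arrays were below all controls and none above them. Ccng1 was 0.53 lower in tumours (SE 0.19, adjusted p = 0.0195), and by group 0.68 lower in Olig2 (adjusted p = 0.012) and 0.67 lower in hGFAP tumours (adjusted p = 0.0204), while Math1 at -0.50, Tlx3 at -0.14 and Ptc1+/- at -0.68 were not called. The means were 8.91 ± 0.25 (n = 6) in non-tumour, 8.77 ± 0.26 (n = 3) in Tlx3, 8.41 ± 0.24 (n = 3) in Math1, 8.24 ± 0.39 (n = 6) in hGFAP, 8.23 ± 0.60 (n = 7) in Olig2 and 8.23 ± 0.27 (n = 2) in Ptc1+/- tissue, and of these neighbours only Tlx3 and Math1 lay further apart than their SDs.

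The fall of Ccng1 rested on 1 probe set. The other 2, 1450016_at and 1450017_at, which list the same source sequence in the annotation, stood at -0.06 and -0.05 over all tumours and were not called (adjusted p = 0.851 and 0.90). Olig2 arrays 5, 6 and 7, which stood apart on other probe sets, were the highest tumours on both. They read 8.06, 7.99 and 7.92 on 1450016_at and 7.91, 7.49 and 7.80 on 1450017_at. The other Olig2 tumours lay between 6.42 and 7.15 and between 5.38 and 7.42. With the 3 probe sets averaged, the gene stood at -0.22 (adjusted p = 0.34). The call was also lost without the Mxi1-cre controls (-0.50, adjusted p = 0.0808), without the 5 arrays of highest 3' to 5' ratio (-0.42, 0.0843), with brightness as a covariate (-0.38, 0.0782) and without non-tumour array 1 (-0.47, 0.0591). Without the 7 dimmest arrays the Olig2 difference was -0.14 (adjusted p = 0.648), and without hGFAP array 4 the hGFAP call ended (-0.56, 0.0555). The Ptc1+/- difference passed without Olig2 array 6 (adjusted p = 0.0498).

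Eda2r (XEDAR), which binds the A2 form of ectodysplasin, was the member with the largest difference. On the non-tumour arrays its lowest, median and highest signals were 3.37, 3.85 and 4.26, and arrays 1 and 6 were at the floor. In Math1 tumours it read 7.43, 7.33 and 7.26, in Tlx3 tumours 7.84, 7.25 and 7.77, and in Ptc1+/- tumours 7.05 and 7.61. The Olig2 tumours ran from 6.33 through 7.33 to 7.46 and the hGFAP tumours from 6.17 through 6.49 to 7.72. All 21 tumour arrays lay above all 6 non-tumour arrays, as for 8.14% of the genes tested, while 9.68% lay wholly below. The difference was at least 3.39 (SE 0.22, adjusted p = 1.6e-13), or at least 10.5-fold, a bound because of the controls at the floor. Group by group it ranked Tlx3 (3.80), Math1 (3.52), Ptc1+/- (3.51), Olig2 (3.26) and hGFAP tumours (2.88), each called. The call over all tumours was kept under every alternative, with values from 2.29, when the floor was set at the 40th percentile of all signals, to 3.50. The group means were 7.62 ± 0.32 (n = 3), 7.34 ± 0.08 (n = 3), 7.33 ± 0.39 (n = 2), 7.08 ± 0.48 (n = 7) and 6.70 ± 0.61 (n = 6) in the same order, each within the larger SD of its neighbour.

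Within the Olig2 and hGFAP groups Eda2r varied between arrays. Olig2 arrays 3 and 4 and hGFAP arrays 4 and 6, which have the highest 3' to 5' ratios among tumours, read 6.33, 6.50, 6.21 and 6.17, while the other Olig2 tumours lay between 7.08 and 7.46. The other hGFAP tumours were spread more widely, with 7.72, 6.33, 7.11 and 6.65 on arrays 1, 2, 3 and 5. Without the 5 arrays of highest ratio the difference was 3.41 over all tumours, 3.44 in Olig2 and 3.04 in hGFAP tumours.

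**Figure D4:**
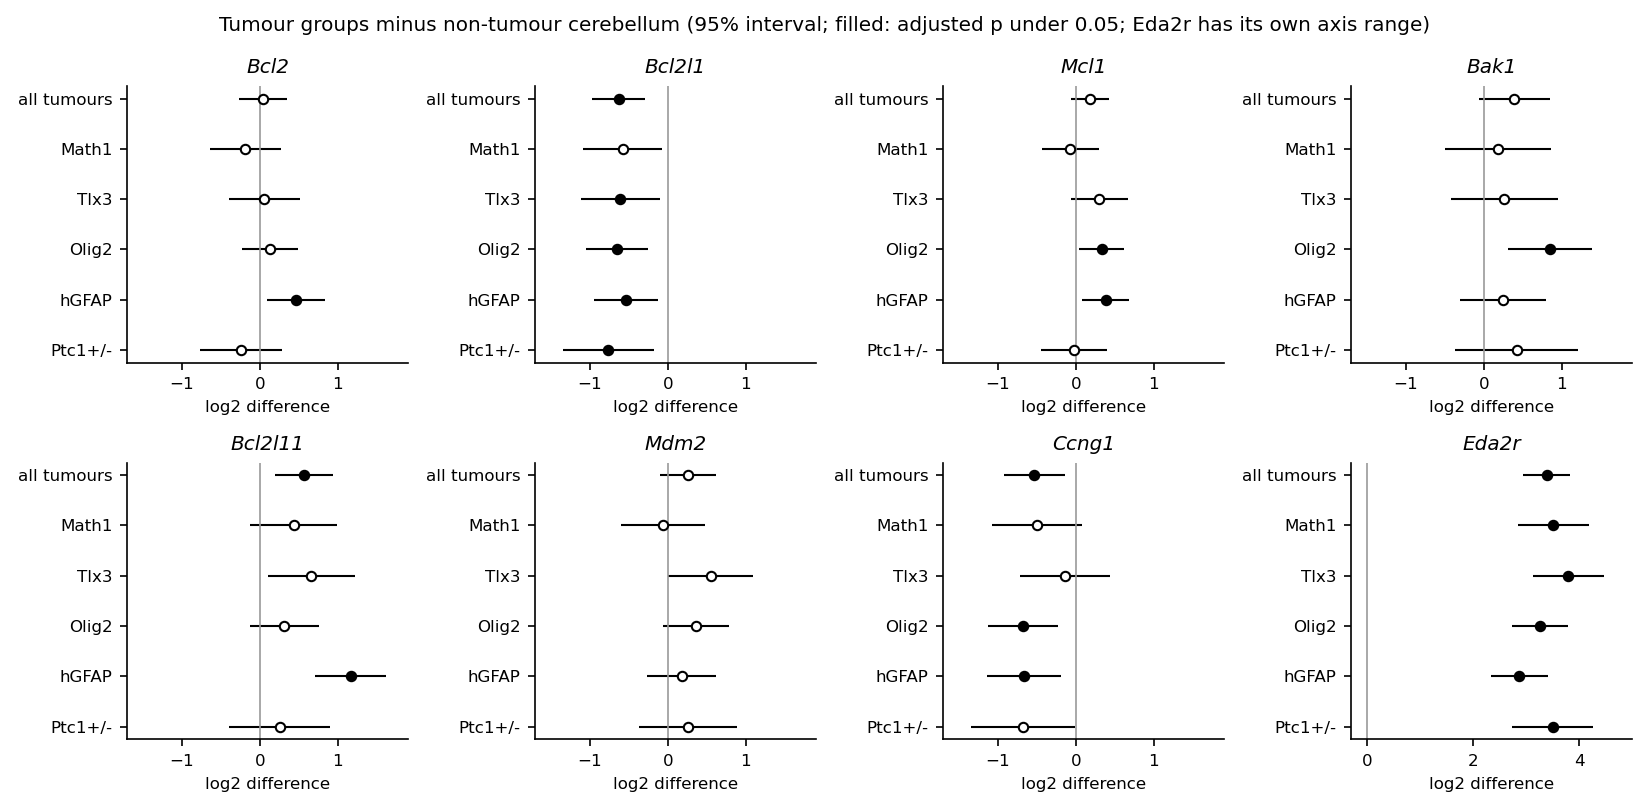
Difference from non-tumour cerebellum on the log2 scale (horizontal axes) for each member, over all tumours and for each tumour group; points are estimates from limma, lines are 95% intervals and filled points have an adjusted p under 0.05. Eda2r, with its own axis range, is filled in every comparison, Bcl2l1 in all but Math1, and Bcl2, Bak1 and Bcl2l11 in a single tumour group each.

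The 5 tumour groups were each set against the same 6 non-tumour arrays, so their comparisons share controls. In Math1 tumours 1 member was called, Eda2r, where 37.4% of all genes were (19.3% higher, 18.1% lower). In Tlx3 tumours 2 were called against 40.3% of genes (19.7% higher, 20.6% lower), and in Ptc1+/- tumours 2 against 36.3% (17.9% higher, 18.4% lower). In Olig2 tumours 5 were called against 49.6% (24.7% higher, 25% lower) and in hGFAP tumours 6 against 41.7% (22.5% higher, 19.2% lower). The larger groups thus had more calls; they also have more arrays (7 and 6 against 3, 3 and 2). The hGFAP group had the most calls, with Bcl2, Mcl1, Bcl2l11 and Eda2r higher and Bcl2l1 and Ccng1 lower. Only Bcl2l11 and Eda2r among these 6 differed by more than 2-fold there. Without the Mxi1-cre controls only 2 members were called in hGFAP tumours, Bcl2l11 being 1 of them.

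Between tumour models no member passed the test. Ptc1+/- tumours against the mean of the 4 SmoM2 groups gave 0 of 8 members, where 0.547% of genes were called (0.0444% higher, 0.503% lower), and values from -0.39 for Bcl2l11 (95% interval -0.98 to 0.20) and -0.36 for Bcl2 (-0.84 to 0.12) to 0.14 for Eda2r (-0.56 to 0.84). No member separated the 2 Ptc1+/- arrays from the 19 SmoM2 arrays, as 0.68% of genes did upward and 0.976% downward. The hGFAP and Olig2 tumours together, set against the Math1 and Tlx3 tumours, gave 0 of 8 where 0.259% of genes were called (0.118% higher, 0.14% lower), with Eda2r at -0.59 (95% interval -1.05 to -0.13, adjusted p = 0.22), Bcl2 at 0.36 (0.04 to 0.68, adjusted p = 0.263) and Bcl2l1 at 0.00 (-0.35 to 0.35). Among the 4 SmoM2 groups 0 of 8 passed where 0.946% of genes did. Over probe sets the called shares were 0.262% between Ptc1+/- and SmoM2 tumours and 0.495% among the SmoM2 groups. At an unadjusted p under 0.05 in limma these 3 comparisons had 0, 2 (Bcl2 and Eda2r) and 3 members (Bcl2, Bcl2l11 and Eda2r), in that order, where 11.7%, 15.5% and 21.1% of all genes passed.

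Other genes of the pathway were drawn from lists chosen by function, and their counts stand against the 52.4% of all genes called over all tumours (26.8% higher, 25.6% lower). Of the Bcl2 family beyond the members, Bcl2l2 (Bcl-w), a pro-survival gene of mature neurons, was the 1 of 5 listed pro-survival genes tested and fell by 1.28 (SE 0.17, adjusted p = 2.6e-07), from 8.95 ± 0.14 (n = 6) in non-tumour tissue to group means of 7.50 to 7.93. Of 4 tested effector-like and other multidomain genes, 3 rose and 0 fell: Bok, a pore-former related to Bak1, by 2.70 (SE 0.22), Bcl2l12 by at least 2.44, with 3 controls at the floor, and Bcl2l13 by 1.05. Bcl2l14 stood at -0.65 and was not called.

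Among 7 tested BH3-only genes other than Bcl2l11, 3 rose and 1 fell. Bid, whose protein carries the death receptor signal to mitochondria, rose by at least 3.55 (SE 0.22), with 4 of the 6 controls at the floor, and its tumour arrays ran from 5.59 to 7.80 against 3.37 to 4.04. Hrk, a BH3-only gene of neurons, rose by 2.30 (SE 0.18), from 5.42 to 6.69 on the non-tumour arrays to 7.35 to 9.55 in tumours. Bbc3 (Puma), the main p53-induced killer of this class, stood at 0.46 (SE 0.19, adjusted p = 0.0452). That call of Bbc3 was lost in 15 of the 27 fits without 1 array (0.38 without non-tumour array 3, adjusted p = 0.13), and with the signals as deposited it stood at 0.11 (adjusted p = 0.758). Bnip3, a hypoxia-induced gene of mitochondrial turnover, fell by 1.96, and Bad, Bmf and Becn1 stood at -0.01, 0.13 and 0.07 and were not called.

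Of 12 tested genes of the caspases and the apoptosome, 3 rose and 1 fell. Casp2 rose by 1.75 (SE 0.15), Apaf1, the scaffold of the apoptosome, by 1.53 (SE 0.20) and Diablo by 0.95, while the mitochondrial nuclease gene Endog fell by 1.26. Casp9 at -0.18, Casp8 at 0.27, Casp6 at 0.39 and Cycs at -0.19 were not called. Of 5 tested inhibitors of apoptosis, Birc5 (survivin), which also acts in chromosome segregation and is a gene of dividing cells, rose by at least 5.13 with 3 controls at the floor, Xiap fell by 0.61 and Birc2 by 0.47.

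Of 31 tested p53 targets other than the members, 8 rose, 8 fell and 15 were not called, with a median of 0.09 against 0.02 over all genes, and a share called close to the 52.4% of all genes. The 2 highest were Psrc1, at least 5.62 with 5 controls at the floor, and Ckap2, at least 4.40 with 1 control there; both encode proteins of the mitotic spindle, and Gtse1, a regulator of p53 in the G2 phase, rose by at least 2.82 with 5 controls at the floor. Trp53inp1 rose by 1.74, Pidd1 by 1.21 and Btg2 by 0.68, Plk3 by at least 1.15 with all 6 controls at the floor and Epha2 by at least 1.08 with 2 there. The 2 lowest were Ak1 at -2.19 and Fbxw7 at -2.16, and Zmat3, Sesn1, Ddb2, Perp, Plk2 and Rrm2b also fell. Cdkn1a (p21), the p53 target that arrests the cell cycle, stood at 0.09 (SE 0.31, adjusted p = 0.828), with a wide spread of 6.87 to 9.21 in non-tumour tissue.

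Regulators of p53 were tested for 19 of 22 genes, of which 7 rose and 3 fell. The checkpoint kinase genes Chek1 and Chek2 rose by at least 3.65, with 1 control at the floor, and by 2.23, and the damage-sensing kinases Atm and Atr by 1.29 and 1.14. Mdm4, the relative of Mdm2 that masks the p53 activation domain, rose by 0.62 (SE 0.15, adjusted p = 0.0011), from 6.81 ± 0.36 (n = 6) to group means of 7.22 to 7.78. The Mdm4 call was lost with the signals as deposited (0.27, adjusted p = 0.457) and with probe sets averaged (0.29, adjusted p = 0.122). Ppp1r13b (ASPP1), a p53 cofactor, fell by 1.11 and Hipk2, a p53 kinase, by 1.01. Trp73, the p53 relative tested, fell by 0.92 (adjusted p = 0.0041). Pmaip1 and Cdkn2a were not among the genes tested. No gene of these lists was called between the Ptc1+/- and SmoM2 tumours or between the hGFAP with Olig2 and the Math1 with Tlx3 tumours. Of all genes only 0.547% and 0.259% were called in these comparisons, so that few calls or none would be usual for lists of this size.

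**Figure D5:**
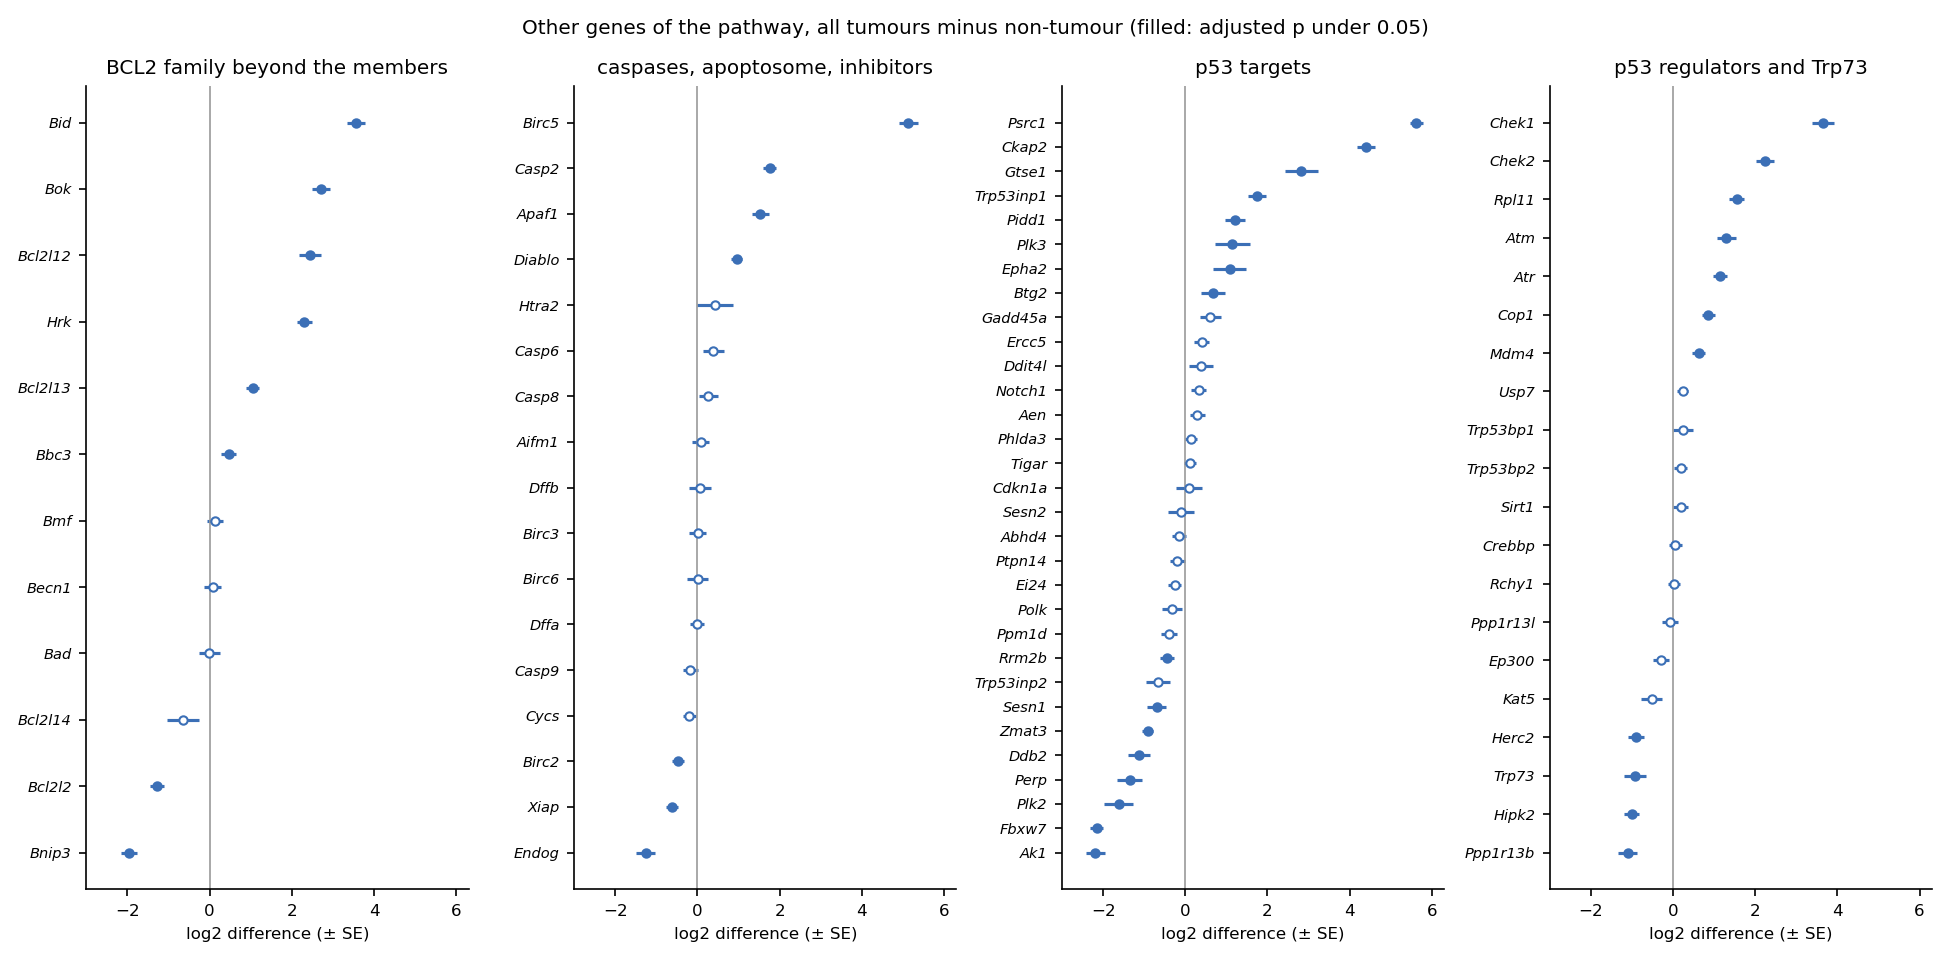
Difference of all tumours minus non-tumour on the log2 scale (horizontal axes) with SE for each tested gene of the pathway lists, sorted within 4 panels; filled points have an adjusted p under 0.05. Filled points run from Bnip3 at -1.96 to Bid at 3.55 in the Bcl2 family, and from Ak1 at -2.19 to Psrc1 at 5.62 among p53 targets.

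The genes whose signal most resembled each member were sought over the 21 tumour arrays after the group means were removed, by Pearson correlation across arrays that share brightness and RNA integrity. Eda2r was closest to Micu2 (r = 0.931) and Ccng1 to Dnajc10 (0.917), followed by Bcl2l11 with Drosha (0.864), Bak1 with Dmpk (0.830), Bcl2l1 with Cttn (0.825), Bcl2 with Osbpl3 (0.803), Mcl1 with Rnf145 (0.775) and Mdm2 with Sult5a1 (0.719). These values describe the arrays and carry no test.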

How the data were processed

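RNA of 27 mouse samples was hybridised to 1-colour Affymetrix arrays. The authors deposited 1 table of linear signal intensity per probe set, made with MAS5 per the submitters' processing notes; its version and scaling target are not given in the sources used here. Its 45101 probe sets were named through the platform annotation (34958 with 1 gene, 932 with several, 9211 unlisted), and 0 value columns were left unused. Each array was rescaled to a common 2% trimmed mean (124), signals under the 20th percentile of the table (10.3) were raised to it, and log2 was taken. Probe sets above the table's median (45.6) on at least 3 arrays were kept (30107). A probe set low on every control could pass this filter through tumour arrays alone. The probe set of highest mean stood for each gene (13527), and all probe sets were also fitted. limma 3.58.1 in R 4.3.3 (lmFit, eBayes with trend and robust) fitted 6 group means, with 21 residual degrees of freedom, and p-values were adjusted by the Benjamini-Hochberg method. The fit was tested on simulated data. The simulated noise was independent between genes, so shifts shared across an array, as of brightness or RNA integrity, were not covered.

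The tumour against non-tumour value is the mean of the 5 tumour group means minus the non-tumour mean. All members were described with each of their probe sets. From each pathway list the text names Cdkn1a, Mdm4, Cdkn2a, Bbc3, Pmaip1, Bid, Bad, Bcl2l2, Apaf1 and Birc5 where held, and the 2 highest and 2 lowest called genes (1 further gene of this rule is not reported here); other list genes named were chosen after their values were seen. Members and lists were chosen with earlier results of these data known. A fold against controls at the floor is a lower bound. Alternatives covered scaling, floor, filter, probe set choice, test settings, brightness and 3' to 5' ratio, the replicate block, the choice of controls, and leaving out each array. The number of arrays limits the precision. Promoter windows came from RefSeq (GRCm38.p6). The build behind the array annotation is not given in the sources used here.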

Additional observations from a re-analysis of the deposited data

Results flagged for a closer look

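Of 24 groups of 4 to 10 arrays examined over the 8 members, 2 held an array far from the others by Dixon's criterion, which chance meets in about 1 in 20 groups. Bcl2 on non-tumour array 2 was 6.04, and the nearest non-tumour array was 6.42, a gap of 0.814 of the group's range. Mdm2 on Olig2 tumour array 6 was 9.08, and the nearest Olig2 array was 8.31, a gap of 0.627 of the range.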

How the results depend on the processing

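Over all tumours 4 members were called, 2 without the Mxi1-cre controls, and 3 to 5 when single arrays were left out. For Math1 tumours the count of 1 became 2 with probe sets averaged, 3 with only the groups compared, 4 with array weights, 2 with the replicate block and 3 without the 7 dimmest arrays (1 to 2 without single arrays). For Tlx3 the count of 2 became 1 with the signals as deposited, the 40th percentile floor, no filter, eBayes without trend and robust, or no Mxi1-cre controls, and 4 with probe sets averaged, only the groups compared or array weights (1 to 3). For Olig2 the count of 5 became 3 as deposited and 2 with brightness as a covariate or without the 7 dimmest arrays (4 to 5). For hGFAP the count of 6 became 3 as deposited, 2 without the Mxi1-cre controls, and 3 without the 5 arrays of highest 3' to 5' ratio or with brightness as a covariate (3 to 6). For Ptc1+/- the count of 2 became 4 as deposited and 1 with array weights, without the Mxi1-cre controls, with the ratio or brightness as a covariate, or without the 7 dimmest arrays (1 to 3). The hGFAP and Olig2 against Math1 and Tlx3 comparison went from 0 to 4 as deposited, and the test among SmoM2 groups from 0 to 1 as deposited, with array weights and without the 5 arrays of highest ratio (0 to 1). Leaving out single arrays left 0 members for the Ptc1+/- against SmoM2 and the hGFAP and Olig2 against Math1 and Tlx3 comparisons, and 9 to 11 probe sets.

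With the signals as deposited, 24 of 64 member differences changed sign, and 10 did with probe sets averaged. Most were not called, as Bcl2, Mcl1 and Mdm2 over all tumours (-0.31, -0.16 and -0.091 as deposited), Bcl2l11 in Olig2 (-0.36) and Ptc1+/- tumours (-0.84), Bcl2 in Olig2 (-0.54) and Bak1 in Ptc1+/- tumours (-0.68). Those called on one side were Mcl1 as deposited in Olig2 (-0.34) and hGFAP tumours (-0.059), for Bcl2l1 (0.030) and Mcl1 (0.67) in Ptc1+/- tumours with probe sets averaged, and for Mdm2 in the hGFAP and Olig2 against Math1 and Tlx3 comparison as deposited (-0.77). Rescaling multiplies every signal of an array by 1 factor, so signals above the floor shift together in a comparison when it is left out. In Olig2 tumours Bcl2 went from 0.13 to -0.54 and Mcl1 from 0.33 to -0.34. In the comparison where Mdm2 stood at -0.77, the median of all genes was -0.76 as deposited. The cause of the sign changes with probe sets averaged was not tested. Over all genes, the Ptc1+/- against SmoM2 count of 74 was 785 as deposited and 36 to 135 without single arrays; that of hGFAP and Olig2 against Math1 and Tlx3, 35, was 6958 and 2 to 81; that among SmoM2 groups, 128, was 1582 and 43 to 455. As deposited, Math1 had 2838 calls in place of 5062 and Tlx3 3353 in place of 5451.

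Over 49 same-numbered pairs the correlation, with group means removed, ran from -0.34 to 0.28, and 19 were over 0.1. Pairs with different numbers were not computed, so that these values do not decide whether replicate numbers pair the samples. With the replicate block 4 members were called over all tumours, and 7 of 72 member calls changed.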
